A study of Mus musculus with 9 samples.

Results

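The transcripts described here encode splicing factors and nuclear RNA-binding proteins of 6 families. They were taken by gene symbol: the heterogeneous nuclear ribonucleoproteins (hnRNP), the serine and arginine-rich splicing factors (SRSF), the subunits of splicing factors 3a and 3b (SF3), the small nuclear ribonucleoprotein polypeptides (SNRP), the poly(C)-binding proteins (PCBP) and the numbered RNA-binding motif proteins (RBM). Of 22690 probe sets on the array, 174 carried such a symbol alone, and they covered 69 of 12393 genes. The hnRNP family had 50 probe sets for 18 genes, SRSF 28 for 9, SF3 22 for 9, SNRP 15 for 8, PCBP 8 for 4 and RBM 51 for 21. A further 20 probe sets listed a member among several symbols and were not used.

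The RNA, measured on Affymetrix arrays, came from layer IV of barrel cortex, the whisker area of the mouse somatosensory cortex, cut out by laser microdissection at postnatal day 5. The C57BL/6 mice were knockouts for Gap43 (KO), heterozygotes (Het) or wild type (WT), with 3 mice and 3 arrays each, numbered here by replicate, and no treatment is given. Gap43 encodes a membrane phosphoprotein of growing axons. The labels give no detail of the allele, and the dissected layer holds neurons, glia, vessels and the terminals of ingrowing axons, so that a signal cannot be assigned to 1 cell type.

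Pre-mRNA splicing is carried out by the spliceosome, whose small nuclear ribonucleoproteins are built on rings of Sm proteins and whose U2 particle, with its SF3a and SF3b subcomplexes, recognises the branch point of the intron. SR proteins bind exonic sequences and commonly promote use of the nearby splice sites, whereas many hnRNP proteins, which coat nascent transcripts, can oppose them. Poly(C)-binding proteins act on the stability and translation of mRNAs as well as on splicing, and neurons depend on such factors for the many alternative exons of synaptic and cytoskeletal genes.

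To show the regulatory sequence in front of the genes on which the results turn, the promoters of Pcbp2, Hnrnpa2b1, Hnrnpa1 and Sf3a1 are given, taken from RefSeq (build GRCm38.p6), 5′ to 3′ on the strand of the gene, with 250 bases before and 50 bases after the most upstream annotated start. Capitals mark matches, on either strand, to the ETS string CCGGAAG, the CCAAT box, the GC box string GGGCGG, the TATA box string TATAAA, the YY1 string AAGATGGCG and the NRF1 string GCATGCGC, none of which contains another.
Pcbp2 (chr15:102470289-102470588, plus strand): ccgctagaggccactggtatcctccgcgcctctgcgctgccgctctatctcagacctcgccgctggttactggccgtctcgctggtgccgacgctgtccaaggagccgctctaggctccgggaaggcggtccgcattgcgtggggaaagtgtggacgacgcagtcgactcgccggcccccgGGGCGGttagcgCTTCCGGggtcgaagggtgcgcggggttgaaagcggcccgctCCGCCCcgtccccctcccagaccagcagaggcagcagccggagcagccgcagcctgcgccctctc
Hnrnpa2b1 (chr6:51469845-51470144, minus strand): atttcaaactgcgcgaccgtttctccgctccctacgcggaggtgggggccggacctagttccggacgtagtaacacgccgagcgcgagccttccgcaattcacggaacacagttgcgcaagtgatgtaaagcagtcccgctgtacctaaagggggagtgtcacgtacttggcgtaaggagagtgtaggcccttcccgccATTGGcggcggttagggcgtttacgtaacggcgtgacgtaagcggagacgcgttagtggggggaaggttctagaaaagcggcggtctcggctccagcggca
Hnrnpa1 (chr15:103240147-103240446, plus strand): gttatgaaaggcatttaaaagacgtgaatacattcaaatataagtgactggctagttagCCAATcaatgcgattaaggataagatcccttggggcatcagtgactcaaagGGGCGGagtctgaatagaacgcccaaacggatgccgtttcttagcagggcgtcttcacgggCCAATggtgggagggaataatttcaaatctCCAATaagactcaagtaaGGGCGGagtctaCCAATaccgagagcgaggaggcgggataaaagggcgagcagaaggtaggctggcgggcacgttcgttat
Sf3a1 (chr11:4160104-4160403, plus strand): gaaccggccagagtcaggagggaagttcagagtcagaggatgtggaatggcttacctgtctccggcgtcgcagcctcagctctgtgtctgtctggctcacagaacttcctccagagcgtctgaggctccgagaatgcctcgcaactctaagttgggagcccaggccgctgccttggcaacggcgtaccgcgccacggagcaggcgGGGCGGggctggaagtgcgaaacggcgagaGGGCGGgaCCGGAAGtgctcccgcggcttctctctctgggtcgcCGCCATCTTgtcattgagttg

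Pcbp2 and Sf3a1 each held 1 ETS string and 2 GC boxes, and Sf3a1 also held 1 YY1 string. Hnrnpa1 held 4 CCAAT boxes and 2 GC boxes, and Hnrnpa2b1 held a single CCAAT box. A promoter was available for 60 of the 69 genes, and they were GC-rich, with a median GC content of 60.2% and a median of 24 CG dinucleotides, against 56.3% and 13 in 17492 promoters of protein-coding genes. The ETS string occurred in 19 of the 60 promoters (31.7%), against 11.9% of promoters of protein-coding genes and 9.14% of 27025 promoters of any gene. It was found in 6 of 7 SF3, 4 of 7 SNRP, 2 of 2 PCBP and 3 of 9 SRSF promoters, but in 2 of 16 hnRNP and 2 of 19 RBM promoters. The CCAAT box occurred in 48.3% of the promoters (10 of 16 for hnRNP), against 39.2% of those of protein-coding genes. The GC box occurred in 63.3% against 46.3%, the TATA box in 11.7% against 13.3%, and the YY1 string in 2 of 60 (3.33%) against 1.92%. The NRF1 string was in 0 of 60, against 3.61%. These matches describe the letters in the windows, and no binding was measured.

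Signals were compared as log2(signal + 16) with limma over the 13576 probe sets of highest mean, so that a log2 change slightly understates the change of a dim probe set. Of the members, 143 probe sets from 68 genes were among these, namely 46 hnRNP, 26 SRSF, 19 SF3, 13 SNRP, 8 PCBP and 31 RBM. Rbm47 alone had no probe set above the filter. Precision is limited throughout by having n = 3 arrays per genotype. Gap43 signal was 979, 1930.2 and 1299 in KO arrays, 5015, 5039 and 4389 in Het arrays and 7089, 4746 and 4294 in WT arrays. KO arrays were thus 3.85-fold below WT (limma adjusted p = 0.0173), and Het and WT arrays overlapped. Across the 143 members, the median correlation between arrays was 0.967 for pairs that shared a genotype and 0.964 for pairs that did not. The 3′ to 5′ signal ratio of the Gapdh and Actb control probe sets was 13.5, 14.5 and 11.2 in KO arrays, 10.1, 26.4 and 9.94 in Het arrays and 10.7, 15.5 and 10.1 in WT arrays. Het 2 and WT 2 had the highest ratios.

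In KO against WT, transcripts of the 6 families lay more often above WT than below, most clearly in number for the hnRNP and PCBP families. Of the 143 kept member probe sets, 102 had a log2 change above 0 (71.3%), against 53.7% of all kept probe sets, with a median of 0.10 against 0.02. None of the 143 passed an adjusted p of 0.05 with limma, where 0.00737% of all kept probe sets did (Gap43 alone). At an unadjusted p below 0.05 there were 13 members (9.09%), near the 8.03% of all kept probe sets. Of the 13, 11 were higher and 2 lower in KO (background 4.43% and 3.59%). KO and WT arrays did not overlap for 19 members (13.29%), near the 13.7% of all kept probe sets, with KO higher in 18 and lower in 1 (background 7.83% and 5.83%). By family, 36 of 46 hnRNP probe sets were above 0 (median 0.16), 7 of 8 PCBP (0.25), 21 of 31 RBM (0.12), 18 of 26 SRSF (0.10), 12 of 19 SF3 (0.07) and 8 of 13 SNRP (0.02). With arrays set to one median, the count at an unadjusted p below 0.05 was 8, against 8.25% of all kept probe sets, and the SNRP median was -0.04. The hnRNP, PCBP and RBM medians were above 0 under all 20 alternatives. In the fit with 1 probe set per gene, 15 of 18 hnRNP genes were above 0. Only 1 of the 18 was higher at an unadjusted p below 0.05 (5.56%), against 4.53% of all kept genes in that fit.

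The number of members above 0, and the split of the calls between higher and lower, depended on 1 library. In WT 2 the members' median deviation from their own mean over the 9 arrays was -0.19 on the log2 scale, whereas it was 0.02 in WT 1 and 0.05 in WT 3, and 0.10, 0.10 and 0.04 in KO arrays. Over all kept probe sets WT 2 did not stand apart, at 0.01. The low values of WT 2 were in the SRSF (-0.39), RBM (-0.23), hnRNP (-0.22) and SNRP (-0.15) families and not in SF3 (-0.01) or PCBP (-0.02). Without WT 2, 78 of 143 members were above 0 in KO against WT (54.55%), next to 54.8% of all kept probe sets, with 7 higher and 6 lower at an unadjusted p below 0.05, again 13 in all (background 5.67% and 4.81%). The median then turned to -0.10 for SRSF and -0.15 for SNRP, and was 0.11 for hnRNP, 0.31 for PCBP, 0.08 for SF3 and 0.06 for RBM. Without KO 1, 7 members were below an unadjusted p of 0.05, against 5.04% of all kept probe sets, and the SF3 median was -0.016. WT 2 also had the highest 3′ to 5′ ratio of the WT arrays. With that ratio as a term in the fit, 106 of 143 members were above 0 in KO against WT (74.13%), against 54.29% of all kept probe sets. In KO against Het 96 were above 0 (67.13%), against 46.3%. Het 2, not WT 2, had the highest ratio of all arrays, so this fit cannot decide on WT 2. The part of the ratio in the low values of WT 2 was not tested.

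In Het against WT the members showed no common direction. Here 69 of 143 were above 0 (48.25%), against 55.3% of all kept probe sets, and the median was -0.02 against 0.03. None passed an adjusted p of 0.05 with limma, which 0% of all kept probe sets did, and at an unadjusted p below 0.05 there were 10 members, against 6.22% of all kept probe sets, 3 of them higher and 7 lower (background 4.06% and 2.16%). With arrays set to one median, which moved the median of all kept probe sets to -0.06, the members' calls were 1 higher and 12 lower, and those of all kept probe sets also moved to lower (1.61% higher and 5.33% lower). The count of 10 was 22 with array weights, where the share of all kept probe sets was 13.4%. It was 20 without WT 2, against 8.35% of all kept probe sets, 6 without WT 1, against 4.89%, and 5 without WT 3, against 5.12%. Medians were 0.24 for PCBP (7 of 8 above 0), 0.02 for RBM (18 of 31), -0.01 for SF3 (9 of 19), -0.03 for SRSF (12 of 26), -0.08 for hnRNP (20 of 46) and -0.09 for SNRP (3 of 13). The RBM median was -0.07 with arrays set to one median, the hnRNP median 0.064 with 1 probe set per gene and the SF3 median 0.11 without WT 2. The RBM median was -0.045 without WT 2, the SRSF median was 0.11 without WT 1 and the SNRP median was 0.0067 without WT 3. Of the 6 medians, that of PCBP alone kept its sign under all 20 alternatives. Het and WT arrays did not overlap for 12 members, against 12.9% of all kept probe sets, with Het higher in 4 and lower in 8 (background 8.51% and 4.39%).

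The log2 changes and overlaps of KO against Het use no WT array, but its p-values rest on a spread estimated from all 9 arrays. This comparison again placed the hnRNP transcripts higher in KO. Of the 46 hnRNP probe sets, 39 were above 0 with a median of 0.19, and 11 were higher at an unadjusted p below 0.05 with 0 lower. For 13 of the 46 every KO array lay above every Het array (28.3%), against 6.67% of all kept probe sets. Several of these probe sets belong to the same gene. In the fit with 1 probe set per gene, 15 of 18 hnRNP genes were above 0. Of these 18 genes, 2 were higher at an unadjusted p below 0.05 (11.1%) and 0 lower, against 3.74% and 4.17% of all kept genes in that fit. Over the 6 families, 94 of 143 members were above 0 (65.7%), against 46.6% of all kept probe sets, with medians of 0.10 and -0.02. None passed an adjusted p of 0.05 with limma, which 0.00737% of all kept probe sets did, and 20 were below an unadjusted p of 0.05, against 7.73% of all kept probe sets, 18 of them higher and 2 lower in KO (background 3.96% and 3.76%). KO and Het arrays did not overlap for 27 members, against 14% of all kept probe sets, with KO higher in 26 and lower in 1 (background for lower 7.35%). By the F-test over the 3 genotypes, 18 members were below an unadjusted p of 0.05, against 7.55% of all kept probe sets, and 9 of these were hnRNP. Medians were 0.10 for SRSF, 0.08 for RBM, 0.07 for SNRP, -0.02 for SF3 and -0.05 for PCBP. With arrays set to one median the SF3 median was 0.02. It was 0.055 without KO 2, and the PCBP median was 0.029 without KO 3, whereas the medians of the other 4 families were above 0 under all 20 alternatives. KO against WT and KO against Het share the KO arrays, so their changes are not independent of each other.

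**Figure D1:**
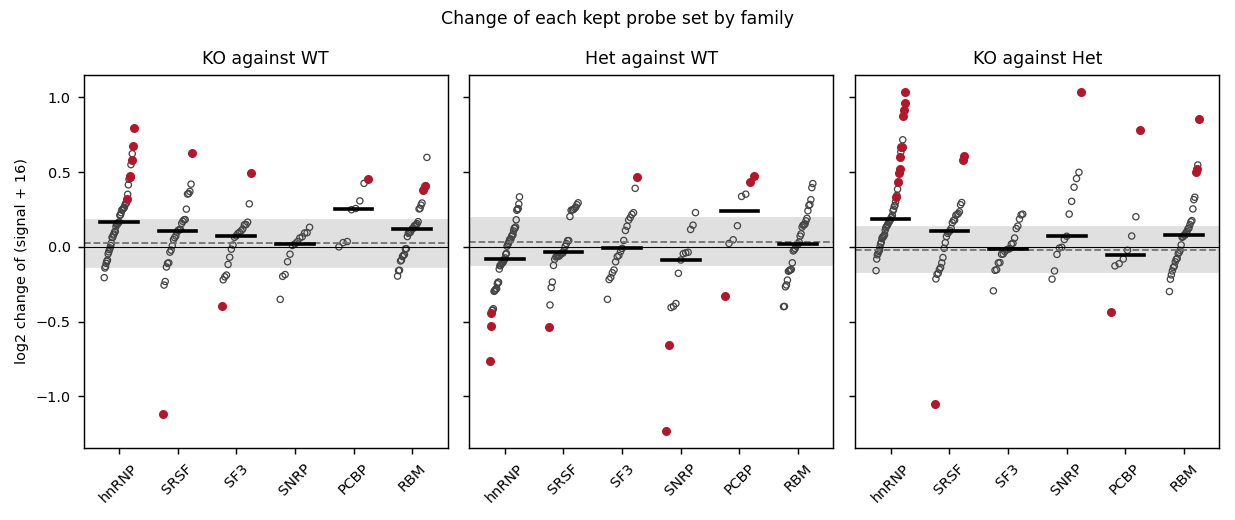
Log2 change of each kept member probe set by family in the 3 comparisons. Each point is 1 probe set (filled red where the unadjusted limma p is below 0.05), black bars are family medians, and the dashed line and grey band are the median and the range between the quartiles of all 13576 probe sets. The hnRNP median is 0.16 in KO against WT, -0.08 in Het against WT and 0.19 in KO against Het.

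**Figure D2:**
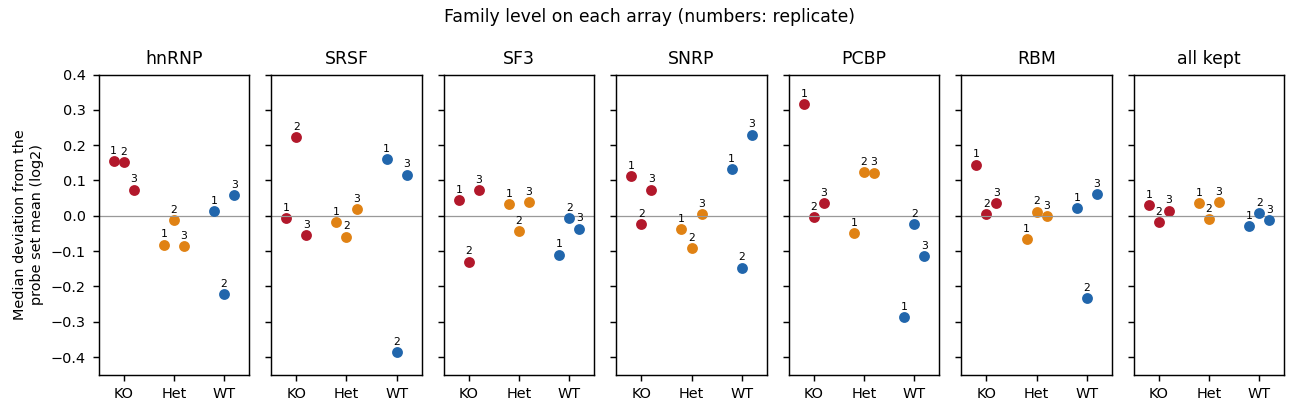
Median deviation of each family's kept probe sets from their own mean over the 9 arrays (log2, y axis), 1 numbered point per array, with KO, Het and WT from left to right and all kept probe sets in the last panel. WT 2 is lowest in the hnRNP, SRSF, SNRP and RBM panels and near 0 in SF3, PCBP and all kept probe sets.

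The families differed in how single mice read. The hnRNP median deviation was 0.16, 0.15 and 0.07 in KO arrays, -0.08, -0.01 and -0.08 in Het arrays and 0.01, -0.22 and 0.06 in WT arrays. Each KO value was above each Het and each WT value. For SRSF it was -0.01, 0.22 and -0.05 in KO arrays, -0.02, -0.06 and 0.02 in Het arrays and 0.16, -0.39 and 0.12 in WT arrays, so that WT 1 and WT 3 were above KO 1 and KO 3. PCBP had 0.32, -0.0041 and 0.04 in KO arrays, -0.05, 0.12 and 0.12 in Het arrays and -0.29, -0.02 and -0.11 in WT arrays, and all KO arrays lay above all WT arrays.

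Among the hnRNP transcripts, Hnrnpa2b1 had the strongest difference by the F-test over the 3 genotypes. It encodes an RNA-binding protein that takes part in splicing and in the transport of RNAs along neuronal processes. Probe set 1433830_at read 870.4, 1439.6 and 724 in KO arrays, 468, 363 and 584 in Het arrays and 637, 402 and 658 in WT arrays. All KO arrays were above all others, with KO 2 highest, and KO was 2.05-fold above Het (log2 change 1.04 ± 0.27, SE; 95% interval 0.46 to 1.62; limma adjusted p = 0.345) and 1.73-fold above WT (limma adjusted p = 0.519). The KO against WT difference was no longer below an unadjusted p of 0.05 without KO 2 or without WT 2, whereas that against Het was in all 19 alternatives. A second probe set, 1433829_a_at, read 3223, 4586 and 2409 in KO arrays, 1566, 1624 and 2237 in Het arrays and 2587, 1735 and 2367 in WT arrays. KO was above Het without overlap and 1.84-fold higher (log2 change 0.88, limma adjusted p = 0.366), but KO 3 lay among the WT arrays. The other probe sets of the gene gave log2 changes of 0.60 and 0.16 for KO against Het, so that all 4 were above 0.

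Hnrnpa1 encodes an abundant shuttling hnRNP that can suppress exon inclusion. Probe set 1436549_a_at read 1619.6, 1342 and 654 in KO arrays, 686, 477 and 563 in Het arrays and 699.7, 926 and 687 in WT arrays. KO 1 and KO 2 were above every other array and KO 3 lay inside the Het range, so the 1.95-fold difference between KO and Het (log2 change 0.96 ± 0.28, SE; limma adjusted p = 0.441) came with overlapping groups. The other kept probe set of the gene, 1455305_x_at, read 652, 445 and 669.6 in KO arrays, 571, 297 and 499 in Het arrays and 656, 635 and 631 in WT arrays, and was lower in Het than in WT without overlap (log2 change -0.53, limma adjusted p = 0.789). Its KO against WT change was -0.14, opposite in sign to the 0.55 of the first.

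Hnrnph1, whose protein binds G-rich stretches near splice sites, was higher in KO than in both other genotypes without overlap in 1 of its 2 kept probe sets. Probe set 1437267_x_at read 1036, 1133 and 845 in KO arrays, 483, 747 and 667 in Het arrays and 606, 532 and 739 in WT arrays. Every KO array exceeded every Het and WT array, with log2 changes of 0.67 ± 0.20 against WT and 0.67 ± 0.20 against Het (SE; limma adjusted p = 0.473 and 0.441), while Het and WT arrays overlapped. Its other probe set, 1415872_at, read 5415, 5947 and 5005 in KO arrays, 3629, 1916 and 3422 in Het arrays and 4320.1, 1931 and 5256 in WT arrays. Het 2 and WT 2, the arrays of highest 3′ to 5′ ratio, were the lowest of their groups. KO 2, with the highest ratio of the KO arrays (14.5), was the highest array. Any part of the ratio in these values was not tested. The KO against Het change of 0.92 had an unadjusted p above 0.05 without Het 2.

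Hnrnpdl encodes a relative of hnRNP D that binds AU-rich RNA. Of its 5 kept probe sets, 3 were below an unadjusted p of 0.05 in KO against Het. The first, 1424252_at, read 1302, 1898 and 1460.2 in KO arrays, 1208, 807 and 1229.9 in Het arrays and 1223, 957 and 1139 in WT arrays, and KO was 1.44-fold above Het (limma adjusted p = 0.574) and 1.39-fold above WT, without overlap in either case. In 1428224_at the values were 1462, 1198 and 1015 in KO arrays, 798, 947 and 941 in Het arrays and 949, 677 and 1028 in WT arrays, with KO above Het without overlap, while KO 3 lay below WT 3 (log2 change 0.47 for KO against WT). In 1449039_a_at, with 2498, 2165 and 2326 in KO arrays, 2179.7, 1721 and 1675 in Het arrays and 2472, 2463 and 2602 in WT arrays, the difference instead lay in Het, which was below WT without overlap (log2 change -0.44 ± 0.14, SE; limma adjusted p = 0.789), and KO against WT was -0.11. The brightest probe set of the gene, 1424251_a_at (mean signal 9487), changed by 0.025 in KO against WT and 0.11 in KO against Het. The remaining one, 1420093_s_at, changed by 0.10 and 0.21. In both, KO was above Het without overlap, and KO and WT overlapped.

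The remaining hnRNP genes named by p were Hnrnpu, Hnrnpr and Hnrnpf. Hnrnpu encodes a nuclear scaffold protein that binds RNA and chromatin, and its probe set 1423050_s_at read 5838, 5575 and 5409.8 in KO arrays, 4842, 6164 and 5153 in Het arrays and 4786, 3689 and 5113 in WT arrays, a log2 change of 0.32 for KO against WT that lost an unadjusted p of 0.05 in 11 of 20 alternatives. A different one, 1423051_at, was higher in KO than in Het without overlap (log2 change 0.49). Of the 5 kept probe sets of Hnrnpu, 4 were above 0 and 1 below (-0.21) in KO against WT. In KO against Het 3 were above and 2 below, from -0.08 to 0.72. Hnrnpr, which acts on mRNA processing and axonal mRNA in motor neurons, read 221, 223 and 379.8 in KO arrays, 137, 159 and 193 in Het arrays and 258, 188 and 225 in WT arrays in 1452030_a_at, with KO above Het without overlap (log2 change 0.67, limma adjusted p = 0.539). That was the largest KO against Het change of the gene's 3 kept probe sets, and the smallest was 0.02. Hnrnpf, a relative of hnRNP H1, read 105, 256 and 226 in KO arrays, 137, 74.95 and 138 in Het arrays and 289, 134 and 215 in WT arrays in the dim 1423382_a_at, and Het was lower than WT with overlap (log2 change -0.77), while its other 3 kept probe sets gave -0.28, 0.07 and 0.12. Hnrnpab had the probe set of highest signal of the family, 1455855_x_at, which read 11012, 10771 and 9802 in KO arrays, 9052, 10247 and 9460.5 in Het arrays and 9405, 8497 and 9308 in WT arrays. KO was above WT without overlap, with a log2 change of 0.21 ± 0.10 (SE; limma adjusted p = 0.641).

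**Figure D3:**
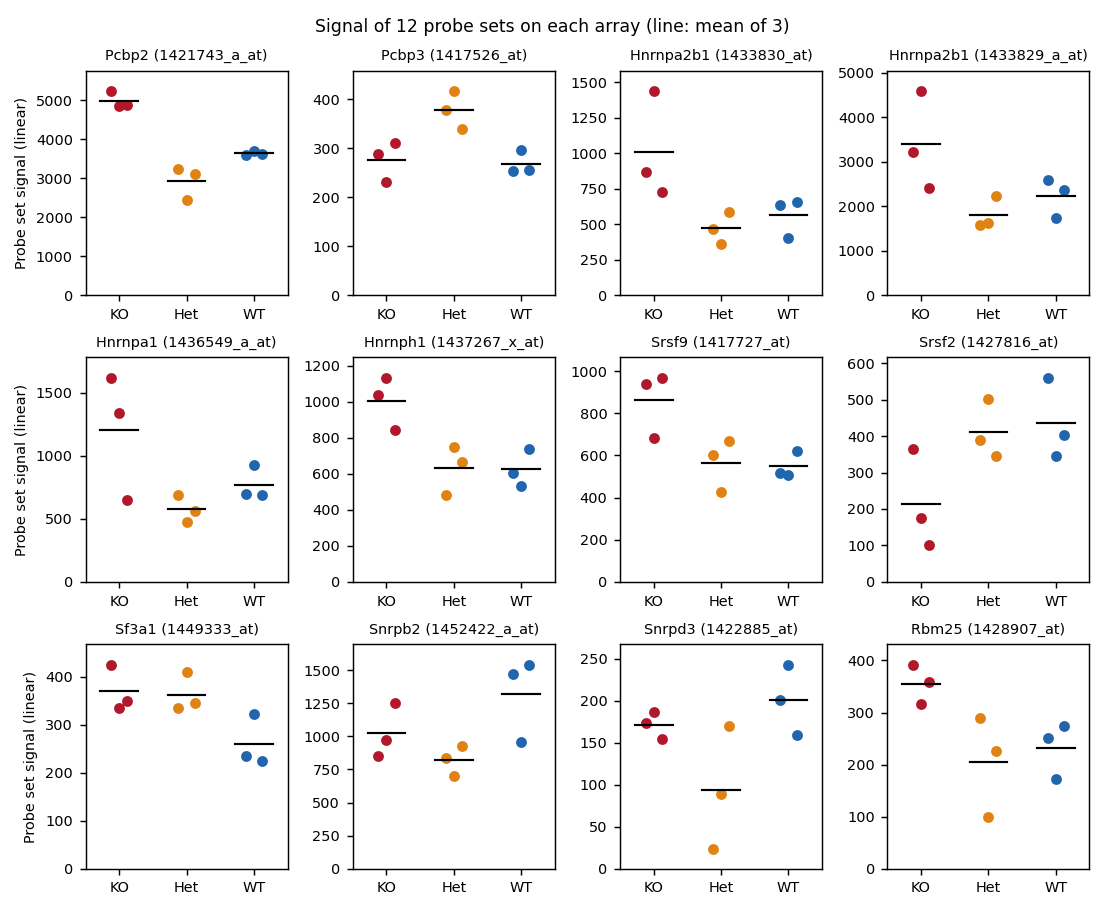
Signal (linear, y axis from 0) of 12 member probe sets on each array, KO, Het and WT from left to right, with 1 point per mouse and a line at the mean of 3. Pcbp2 spans 4847 to 5237 in KO, 2434 to 3226 in Het and 3592 to 3702 in WT, with no overlap between any of the genotypes.

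Pcbp2 had the smallest p of any member. Its protein binds C-rich RNA through KH domains and acts on mRNA stability and translation. Probe set 1421743_a_at read 5237, 4847 and 4886 in KO arrays, 3226, 2434 and 3102 in Het arrays and 3592, 3702 and 3633 in WT arrays, with means of 4990.0 ± 215 in KO, 2921 ± 426 in Het and 3642 ± 55.3 in WT (mean ± SD, n = 3 each). The 3 genotypes did not overlap, with KO highest, WT between and Het lowest, so the order did not follow the number of intact Gap43 alleles. KO was 1.72-fold above Het (log2 change 0.78 ± 0.13, SE; 95% interval 0.50 to 1.06; limma adjusted p = 0.171) and 1.37-fold above WT (log2 change 0.45 ± 0.13, SE; limma adjusted p = 0.47). Het was 1.25-fold below WT (limma adjusted p = 0.789). Both KO differences stayed below an unadjusted p of 0.05 in all 20 alternatives, and the adjusted p for KO against WT ranged from 0.218 to 0.912 over them. The gene's other probe set, 1435881_at, read 393, 367 and 411 in KO arrays, 418, 361 and 412 in Het arrays and 333, 475 and 375 in WT arrays, and there the genotypes overlapped throughout, with a KO against Het change of -0.02 (95% interval -0.39 to 0.34).

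The other poly(C)-binding genes ordered the genotypes differently. Pcbp3, a relative with prominent expression in brain, read 289, 231 and 310.2 in KO arrays, 378, 417 and 340.2 in Het arrays and 254, 296 and 255 in WT arrays in 1417526_at, and Het was above KO and above WT without overlap. Its log2 change was 0.47 ± 0.17 for Het against WT and -0.43 ± 0.17 for KO against Het (SE; limma adjusted p = 0.789 and 0.59). Pcbp4 read 1575, 1188 and 991 in KO arrays, 1049.6, 1615 and 1431 in Het arrays and 932, 1054 and 989 in WT arrays in 1433658_x_at, and its Het against WT change of 0.43 lost an unadjusted p of 0.05 in 10 of 20 alternatives. Pcbp1, an intronless relative of Pcbp2, had the highest signal of the family in 1448642_at, with 6703, 5756 and 6784 in KO arrays, 6142, 5458 and 5133 in Het arrays and 5219, 5532 and 5399.8 in WT arrays. KO was above WT without overlap, at a log2 change of 0.25 ± 0.12 (SE; limma adjusted p = 0.638).

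Among SR proteins, Srsf9 was higher in KO. It encodes a small SR protein that influences alternative splice site choice, and 1417727_at read 938, 685 and 968 in KO arrays, 600.1, 425 and 667 in Het arrays and 515, 509 and 619 in WT arrays. Every KO array was above every Het and WT array, by 1.55-fold on average against WT (log2 change 0.63 ± 0.20, SE; limma adjusted p = 0.502) and 1.53-fold against Het. Both differences were below an unadjusted p of 0.05 in all 20 alternatives.

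Srsf2, which encodes the nuclear speckle protein SC35, gave opposite readings. Probe set 1427816_at read 366, 176 and 101.02 in KO arrays, 390.5, 501 and 346 in Het arrays and 559.7, 346 and 404 in WT arrays, with KO 2 and KO 3 below every other array and KO 1 among them. Its log2 change was -1.12 ± 0.34 against WT and -1.05 ± 0.34 against Het (SE; limma adjusted p = 0.473 and 0.499), the largest change of any kept member in KO against WT. The dim probe set 1452439_s_at read 116, 169 and 151 in KO arrays, 113, 93.6 and 69.5 in Het arrays and 155, 142 and 120.3 in WT arrays, where Het was lowest without overlap and the KO against Het change was 0.58. Of the 4 kept probe sets of Srsf2, 3 were above 0 and 1 below in KO against Het. In KO against WT, 2 were above and 2 below. Srsf2 was the only kept member gene with 1 probe set higher and 1 lower at an unadjusted p below 0.05 in the same comparison. Srsf1, a prototype SR protein with the highest signal of the family in 1434972_x_at, read 4430.2, 5063 and 3589.7 in KO arrays, 3536, 4697 and 3747 in Het arrays and 3874, 2191 and 4373 in WT arrays. WT 2 was the lowest array there, and the KO against WT change of 0.37 had a limma adjusted p of 0.728.

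**Figure D4:**
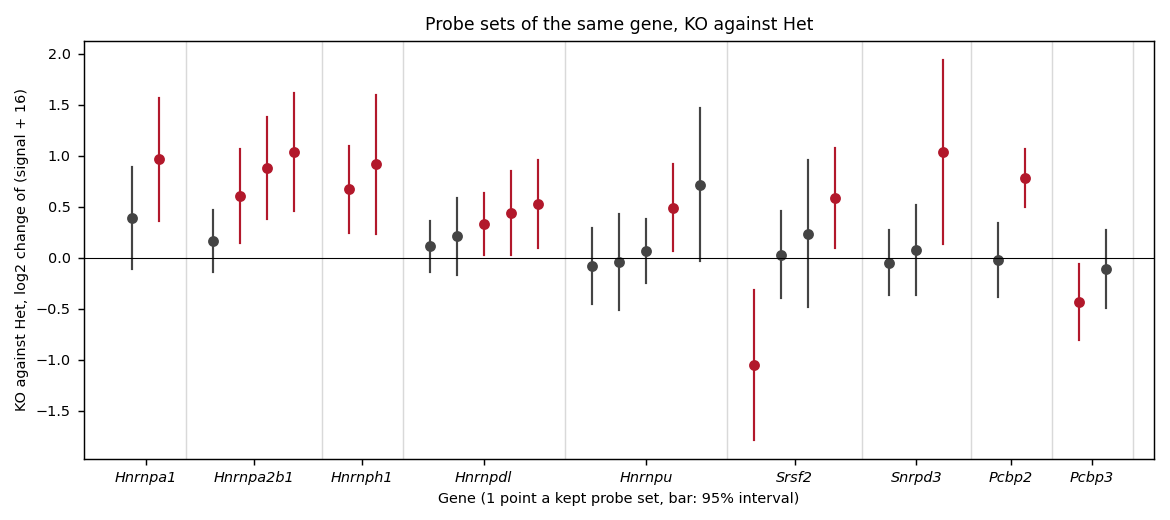
KO against Het log2 change of each kept probe set of 9 member genes, with its 95% interval (red where the unadjusted limma p is below 0.05). The 4 Hnrnpa2b1 probe sets lie above 0, whereas Srsf2 spans -1.05 to 0.58 and the 2 Pcbp2 probe sets lie at 0.78 and -0.02.

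In the SF3 family, which builds the branch point complex of the U2 particle, 1 of the 2 kept probe sets of Sf3a1 was lowest in WT. That probe set, 1449333_at, read 425, 335 and 350.1 in KO arrays, 334, 409.8 and 345 in Het arrays and 235, 322 and 225 in WT arrays. Both KO and Het lay above WT without overlap, with log2 changes of 0.49 ± 0.18 and 0.47 ± 0.18 (SE; limma adjusted p = 0.537 and 0.789), and KO and Het differed by 0.02. The other, 1419087_s_at, read 367, 425 and 347 in KO arrays, 358, 296 and 377 in Het arrays and 294, 558 and 339 in WT arrays, with overlap throughout and log2 changes of -0.02 and -0.15. Sf3b2, which encodes an SF3b subunit near the branch point, went the other way in 1456040_at, with 242, 248 and 339 in KO arrays, 302, 287 and 261 in Het arrays and 349.9, 345 and 404 in WT arrays. KO was below WT without overlap, at a log2 change of -0.40 (limma adjusted p = 0.609). The other 3 kept probe sets of Sf3b2 gave log2 changes of 0.17, 0.15 and -0.07. Sf3b6, whose protein contacts the branch point adenosine, had the highest signal of the family and read 3605, 3119.8 and 2869.7 in KO arrays, 3702, 3113 and 3489.8 in Het arrays and 2913, 3038 and 3127 in WT arrays in 1417054_a_at, with overlapping genotypes.

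The SNRP transcripts with the smallest p were lower in Het. Snrpb2, the U2 protein B″, read 848, 972 and 1254 in KO arrays, 840.2, 697 and 927 in Het arrays and 1472, 955 and 1541 in WT arrays in 1452422_a_at. Every Het array was below every WT array, by 1.58-fold (log2 change -0.66 ± 0.21, SE; limma adjusted p = 0.789), while KO overlapped both. Snrpd3, an Sm ring protein, read 174, 187 and 154 in KO arrays, 23.0, 88.5 and 170.2 in Het arrays and 201, 243 and 159.7 in WT arrays in the dim 1422885_at. The Het arrays spread widely and Het 3 lay within the KO and WT ranges, so that the 2.35-fold difference from WT (limma adjusted p = 0.789) rested on Het 1 and Het 2. The gene's other kept probe sets gave Het against WT changes of -0.04 and 0.15. Snrpg, another Sm ring protein and the family's highest in 1448358_s_at, read 3509.7, 3195 and 2855 in KO arrays, 3027, 3453 and 4289.5 in Het arrays and 3410.4, 2236 and 3643 in WT arrays, with overlap throughout.

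In the RBM family, Rbm25 had the smallest p by the F-test. Its protein associates with the U1 particle and regulates alternative splicing, and 1428907_at read 392, 316 and 359 in KO arrays, 289.5, 100.1 and 227 in Het arrays and 252, 172 and 274 in WT arrays. All KO arrays were above all Het and WT arrays, and KO was 1.81-fold above Het (log2 change 0.85 ± 0.30, SE; limma adjusted p = 0.542), which did not hold at an unadjusted p of 0.05 without Het 2. Its other kept probe set, 1425523_at, read 187, 260.0 and 254 in KO arrays, 244, 304 and 222 in Het arrays and 315, 194 and 285 in WT arrays, and its changes were below 0, at -0.16 in KO relative to WT and -0.13 relative to Het. Rbm15b, a relative of the Spen proteins that takes part in mRNA methylation, read 468, 427 and 451 in KO arrays, 402, 361 and 432 in Het arrays and 274, 367 and 369 in WT arrays in 1454798_at. KO was above WT without overlap (log2 change 0.41, limma adjusted p = 0.581). Rbm14, a paraspeckle protein and transcriptional coactivator, read 591, 443 and 451 in KO arrays, 472, 413 and 528 in Het arrays and 365, 412 and 347 in WT arrays in 1450569_a_at, with both KO and Het above WT without overlap. Its log2 change for KO against WT was 0.38, and those of the gene's other 3 kept probe sets were 0.39, 0.26 and -0.06. Rbm5, a regulator of alternative splicing with the highest signal of the family in 1452186_at, read 2848, 2789.8 and 3244 in KO arrays, 2628, 2407 and 2988 in Het arrays and 2540.1, 2205 and 2491 in WT arrays, and KO was above WT without overlap (log2 change 0.29, limma adjusted p = 0.625).

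Beyond the members named by rule, Rbm8a and Rbm17 were chosen after their values were seen because they completed the KO against Het calls. Rbm8a, a core protein of the exon junction complex, read 388, 427 and 375 in KO arrays, 202, 321 and 321 in Het arrays and 285, 308 and 387 in WT arrays in 1418120_at, and Rbm17, a splicing factor that binds U2 proteins, read 766, 535 and 623 in KO arrays, 518, 331 and 489.8 in Het arrays and 707, 447 and 625 in WT arrays in 1452691_at. KO was above Het without overlap for both, by log2 changes of 0.50 and 0.52 (limma adjusted p = 0.59 and 0.618). With Snrpd3, at a log2 change of 1.04, they were the genes left out by the limit of 10.

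Probe sets of 1 gene often disagreed. Of 38 member genes with at least 2 kept probe sets, all probe sets were above 0 for 16 genes, all below for 2 and mixed for 20 in KO against WT. In Het against WT these numbers were 10, 8 and 20, and in KO against Het 16, 5 and 17. Probe sets that can be shared between related transcripts, those with the suffixes _x_at and _s_at, made up 37 of the 143 kept members, among them 1437267_x_at of Hnrnph1, so that the family member they measure is uncertain. The positions of the probes were not used here.

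Other genes of the splicing machinery were followed in lists that exclude the members. Of 59 kept genes of other spliceosome proteins (64 of 78 on the array), 38 were above 0 and 21 below in KO against WT, with a median of 0.08, and 4 were higher and 2 lower at an unadjusted p below 0.05. Over all 8503 kept genes, taken like the lists with 1 probe set per gene, 53.6% were above 0 in KO against WT, and 4.41% were higher and 3.75% lower at that p. The shares called among the 59 were thus near those of all genes. Their median was 0.10 in KO against Het and -0.00051 in Het against WT. Luc7l3, a homologue of a yeast U1 component, read 5264, 5943 and 5965 in KO arrays, 3752, 3575 and 4730.5 in Het arrays and 4480.1, 4100.2 and 4104 in WT arrays, and Luc7l2, of the same family, read 1386, 1360.4 and 801 in KO arrays, 904, 1167 and 906 in Het arrays and 776, 722 and 721 in WT arrays. Both were higher in every KO array than in every WT array, by log2 changes of 0.43 and 0.62 (limma adjusted p = 0.473 and 0.518).

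Among SR-related proteins, SR kinases and the exon junction complex, 20 of 26 kept genes were above 0 in KO against WT, with a median of 0.21 and 5 higher and 0 lower at an unadjusted p below 0.05 (all kept genes: 53.6% above 0, 4.41% higher and 3.75% lower). In KO against Het the median was also 0.21, and in Het against WT it was 0.01. Acin1, a protein of the exon junction-associated ASAP complex, read 528, 447 and 457 in KO arrays, 350.1, 328 and 439 in Het arrays and 266, 303 and 348 in WT arrays, and Srrm1, a splicing coactivator, read 1071, 879 and 773 in KO arrays, 523, 589 and 677 in Het arrays and 534, 594 and 643 in WT arrays. KO lay above WT without overlap for both, at log2 changes of 0.62 and 0.60 (limma adjusted p = 0.46 and 0.46).

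Of 24 kept neuronal and tissue-restricted splicing regulators, 21 were above 0 in KO against WT, with a median of 0.19, and 1 was higher at an unadjusted p below 0.05, where 4.41% of all kept genes were. Elavl3, a neuronal RNA-binding protein of the Hu family, read 3422, 3116 and 2749.6 in KO arrays, 2629.8, 3462 and 2916 in Het arrays and 2065, 2647 and 2495 in WT arrays, a log2 change of 0.37 (limma adjusted p = 0.586), and Celf2 read 10025, 11316 and 10227 in KO arrays, 8078, 8185 and 8952 in Het arrays and 7776, 9436 and 9525 in WT arrays, a log2 change of 0.24. In KO against Het these regulators differed less, with 15 above 0 and 9 below, a median of 0.05 and 2 higher at an unadjusted p below 0.05. Their median in Het against WT was 0.08. Of 28 kept paraspeckle, FET and other nuclear RNA-binding proteins, 22 were above 0 in KO against WT and 22 in KO against Het, with medians of 0.16 in both and 7 and 5 higher at an unadjusted p below 0.05. Of all kept genes, 4.41% were higher in KO against WT and 3.56% in KO against Het, where 45.1% were above 0. Sfpq, a paraspeckle protein that binds RNA and DNA, read 3318, 2582 and 2557 in KO arrays, 1818, 1982 and 1894 in Het arrays and 1905, 1402 and 2047 in WT arrays, and Ewsr1, of the FET family, read 3298, 2376 and 2847 in KO arrays, 1603, 1926 and 1545 in Het arrays and 1918, 1768 and 2085 in WT arrays. All KO arrays were above all Het and WT arrays for both, with log2 changes against WT of 0.66 and 0.55 (limma adjusted p = 0.435 and 0.46). No gene of these lists passed an adjusted p of 0.05. The list values are given for the main fit only, and their dependence on WT 2 was not tested.

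Markers of other cells differed between the arrays as well. Astrocyte markers summed to between 10189 and 14823 signal units in KO arrays, 14278 and 14897 in Het arrays and 14862 and 19461 in WT arrays, with 8 of 9 kept genes below 0 in KO against WT (median log2 change -0.38). Neuron markers summed to between 21266 and 31131 in KO arrays, 26029 and 29815 in Het arrays and 27066 and 29803 in WT arrays. Microglia markers summed to between 1364 and 1745 in KO arrays, 1533 and 2032 in Het arrays and 1509 and 3229 in WT arrays, with 3 of 10 genes kept. Layer IV markers were present, with Rorb at 328 ± 27.4 in KO arrays, 609 ± 95.5 in Het arrays and 529.7 ± 65.2 in WT arrays (mean ± SD, n = 3 each), while Rspo1 was below the filter. The layer IV markers did not share a direction in KO against WT: of 5 kept genes, 2 were above 0 and 3 below. At an unadjusted p below 0.05, 1 was higher and 1 lower (4.41% and 3.75% of all kept genes). Median log2 changes in KO against WT were 0.00034 for neuron, -0.02 for layer IV, -0.19 for interneuron, 0.09 for oligodendrocyte lineage, -0.23 for microglia, -0.04 for endothelial and mural and 0.14 for progenitor and cell cycle markers. In KO against Het they were -0.13 for neuron, -0.37 for layer IV (0 of 5 genes above 0, 2 lower at an unadjusted p below 0.05), -0.09 for interneuron, -0.33 for astrocyte (3 of 9 lower at that p, where 4.08% of all kept genes were), -0.28 for oligodendrocyte lineage, -0.21 for microglia, -0.11 for endothelial and mural and 0.02 for progenitor and cell cycle markers. In Het against WT all 5 layer IV genes were above 0, with a median of 0.35. The part of these markers in the changes of the splicing transcripts was not tested, and fewer cells of a type and less RNA per cell cannot be told apart in such tissue.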

How the data were processed

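RNA from laser-microdissected layer IV was purified with RNeasy columns, amplified in 2 cycles and biotin-labelled, per the labels' protocols. The submitters' processing notes name MAS5 and the Expression Console software of Affymetrix, and the deposited values are intensities on a linear scale (software version: not given in the sources used here). The authors had scaled these intensities so as to bring each array to one level, since the mean after trimming 2% of probe sets at each end was 499.9 on every array. Such scaling assumes that most transcripts are alike on all arrays.

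Groups follow the genotype in each title. The 64 control probe sets were left out, 60% of the remaining probe sets, those of highest mean log2(signal + 16), were kept (lowest mean signal 118), and limma 3.58.1 in R 4.3.3 was fitted to all 9 arrays with genotype as the only term and an intensity trend (6 residual and 6.94 prior degrees of freedom). Tests were 2-sided, with Benjamini-Hochberg adjustment over 13576 probe sets and a threshold of 0.05. Members were matched by platform symbol, and all 174 had the same symbol in RefSeq through their Entrez identifier. The 6 families, the lists of other splicing genes and of cell type markers, and the rule for naming genes were chosen with earlier results of these data known. That rule took member genes at an unadjusted p below 0.05 (at most 10 per direction and comparison), each family's probe set of highest mean and of smallest F-test p, genes with opposite calls, and the 2 genes of smallest p in each splicing list. The alternatives were pseudocounts of 1 and 64, no filter and a 40% filter, no trend, 2 other scalings, array weights, the 3′ to 5′ ratio as a term, a replicate block, 1 probe set per gene, and each array left out in turn. The labels do not say whether replicate numbers mark a litter or a batch. Of 9 same-numbered pairs, 1 correlated above 0.1 (range -0.255 to 0.111), which cannot exclude a shared batch. In each genotype the array numbered 2 had the highest 3′ to 5′ ratio (14.5 in KO, 26.4 in Het and 15.5 in WT).

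The fit was tested on simulated data for 13576 probe sets, 200 of them changed in KO against WT, over 10 runs. It recovered 59.8% of 2-fold and 96.5% of 4-fold changes with 4.47% false calls.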

Additional observations from a re-analysis of the deposited data

How the results depend on the processing

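No member passed an adjusted p of 0.05 in any comparison under any of the 20 alternatives (limma), and each log2 change named at an unadjusted p below 0.05 kept its direction under every alternative that retained its probe set. At an unadjusted p below 0.05 the main counts were 13 in KO against WT, 10 in Het against WT, 20 in KO against Het and 18 for any genotype difference. With arrays set to one median the KO against WT count was 8, and the Het against WT medians were -0.17 for hnRNP and -0.10 for SF3. With 1 probe set per gene the counts were 5, 3, 7 and 6 of 68, against 8.42%, 6.3%, 7.91% and 8.06% of all kept genes. The 5 and the 3 were 7.35% and 4.41% of the members, below those shares. The Het against WT medians were then 0.064 for hnRNP and 0.094 for PCBP. With array weights the Het against WT count was 22, but the share of all kept probe sets was then 13.4%, against 6.22% in the main analysis, and the SNRP medians were -0.12 in KO against WT and -0.23 in Het against WT. With the replicate block the counts were 11, 11, 19 and 17, against 7.27%, 5.62%, 7.12% and 6.85% of all kept probe sets. Leaving out single arrays moved the share of all kept probe sets as well, given here after each count. The KO against WT counts were 7 (without KO 1, 5.04%) to 18 (without Het 2, 9.02%). In Het against WT they were 5 (without WT 3, 5.12%) to 20 (without WT 2, 8.35%). The KO against Het counts were 14 (without KO 2, 5.92%) to 23 (without WT 2, 9.04%). For any genotype difference they were 13 (without KO 1, 6.46%) to 25 (without WT 2, 9.95%). Over those fits the KO against WT median ranged from -0.10 (without WT 2) to 0.16 for SRSF, -0.016 (without KO 1) to 0.094 for SF3, -0.15 (without WT 2) to 0.056 for SNRP and 0.10 (without KO 1) to 0.33 for PCBP. The Het against WT median ranged from -0.037 to 0.11 for SF3, from -0.25 (without WT 2) to 0.0067 for SNRP, from -0.18 (without WT 2) to 0.11 (without WT 1) for SRSF and from -0.045 (without WT 2) to 0.11 (without WT 1) for RBM. The KO against Het median ranged from -0.13 (without Het 1) to 0.029 (without KO 3) for PCBP and from -0.076 (without KO 1) to 0.055 (without KO 2) for SF3. The cause of these moves was not tested. In the simulation, 59.8% of 2-fold changes were recovered, and changes below 2-fold were not simulated.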

Other observations

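Most probe sets of Rbm39, which encodes an SR-related splicing factor and transcriptional coactivator, were below the filter on dim signal: 8 of its 9. They are described because their values stood apart, and were chosen after those values were seen. Probe set 1446147_at read 151, 168 and 157 in KO arrays, 89.7, 45.5 and 109 in Het arrays and 145, 121 and 108 in WT arrays, and every KO array was above every Het and WT array. In 1442745_x_at the values were 135, 321 and 76.8 in KO arrays, 41.3, 42.5 and 63.0 in Het arrays and 51.1, 79.8 and 113 in WT arrays, with all KO arrays above all Het arrays and KO 2 highest. Probe set 1420982_at ran differently, with 33.5, 31.6 and 33.7 in KO arrays, 28.2, 25.2 and 29.6 in Het arrays and 104, 34.4 and 107 in WT arrays, so that WT 1 and WT 3 were far above the other arrays and WT 2 was close to the KO range. In a limma fit without a filter, KO against Het gave log2 changes of 0.90 and 1.39 for the first pair of probe sets, at adjusted p of 0.557 or more. The only kept probe set of the gene, 1426671_a_at, read 612, 933 and 608 in KO arrays, 704, 674 and 793 in Het arrays and 1139.7, 534 and 864 in WT arrays, with overlap throughout and a KO against Het log2 change of -0.04. Signals this dim are noisy under MAS5, and no call is made on them.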
